A study of Mus musculus with 14 samples.

Results

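Heart muscle genes, 10 in number, were followed through lung tissue: Myl4, Myl7, Sln, Nppa, Actc1, Tnnt2, Tnni3, Myh6, Ryr2 and Myh7. They were chosen by gene symbol, and every probe set whose platform annotation carried only that symbol was taken, which gave 16 probe sets for the 10 genes (of 18194 genes, with 34958 probe sets of 1 symbol, and of 45101 probe sets in the whole table). Another 2 probe sets carried both Myh6 and Myh7 as symbols and were left out. The arrays came from lungs of BALB/c mice in 3 groups. The 4T1 group (4 arrays) had received cells of 4T1, a metastatic mouse breast carcinoma line, in the fourth mammary fat pad. The 67NR group (5 arrays) had received 67NR, a breast carcinoma line that the labels call nonmetastatic, at the same site. The normal group (5 arrays) had received PBS without cells. Lung tissue was collected after a PBS perfusion of the lungs, in the tumour groups on day 6 or once tumours measured near 50 mm3. No collection day is recorded here for the normal group. Each tumour group rests on 1 cell line, no sex or age is given, and the labels do not say that arrays of a group came from separate mice, so p-values measure only the spread between these arrays, which may be technical.

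These genes encode parts of the machinery with which a heart muscle cell contracts. Myosin heavy chains pull on actin filaments, light chains tune the myosin heads, the troponin complex makes the filament respond to calcium, and Ryr2 releases that calcium from the sarcoplasmic reticulum. Atria and ventricles share actin and troponins but differ in light chains, with Myl4 and Myl7 in the atria and Myl3 and Myl2 in the ventricles. In mice the muscle of the left atrium runs on along the pulmonary veins into the lung, so atrial muscle transcripts are known from whole lung.

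Promoters are shown first for 3 genes that will be seen to vary together (Myl7, Actc1 and Tnnt2) and for the ventricular member Myh7, which will be seen not to. Each window runs from 250 bases before to 50 bases after an annotated start, 5′ to 3′ on the gene's own strand, from RefSeq on GRCm38.p6. The table held 11 promoters of 9 of the members. Capitals mark matches, on either strand, to the CArG box (the site of serum response factor), the MEF2 box, AGATAA (bound by the GATA factors of the heart), CATTCC (the core of the MCAT element) and TATAAA (the TATA box). Matches of different motifs did not overlap in the members' promoters. The windows are chr11:5898733-5899032, minus strand, for Myl7; chr2:114052826-114053125, minus strand, for Actc1; chr1:135836084-135836383, plus strand, for Tnnt2; and chr14:54994577-54994876, minus strand, for Myh7.
Myl7: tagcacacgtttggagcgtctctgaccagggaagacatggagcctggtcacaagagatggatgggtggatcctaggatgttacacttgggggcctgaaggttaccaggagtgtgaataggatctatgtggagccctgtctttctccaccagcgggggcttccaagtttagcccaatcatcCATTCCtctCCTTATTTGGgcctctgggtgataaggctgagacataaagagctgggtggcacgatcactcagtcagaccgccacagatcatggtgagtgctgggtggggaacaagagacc
Actc1: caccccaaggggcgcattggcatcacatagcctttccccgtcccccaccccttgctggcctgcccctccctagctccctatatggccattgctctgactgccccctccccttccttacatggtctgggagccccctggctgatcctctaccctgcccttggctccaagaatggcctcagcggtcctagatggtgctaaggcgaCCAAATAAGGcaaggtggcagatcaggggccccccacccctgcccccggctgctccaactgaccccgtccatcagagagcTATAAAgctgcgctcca
Tnnt2: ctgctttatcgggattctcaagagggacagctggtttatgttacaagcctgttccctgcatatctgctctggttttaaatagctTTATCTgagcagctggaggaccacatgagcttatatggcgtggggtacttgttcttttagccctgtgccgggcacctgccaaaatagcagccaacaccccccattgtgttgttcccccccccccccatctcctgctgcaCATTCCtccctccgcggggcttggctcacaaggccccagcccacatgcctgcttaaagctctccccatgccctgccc
Myh7: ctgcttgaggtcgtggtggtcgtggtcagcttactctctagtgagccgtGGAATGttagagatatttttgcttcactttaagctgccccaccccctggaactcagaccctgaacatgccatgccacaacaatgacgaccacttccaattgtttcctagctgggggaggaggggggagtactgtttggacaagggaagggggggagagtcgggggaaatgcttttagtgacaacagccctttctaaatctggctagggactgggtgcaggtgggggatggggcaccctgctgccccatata

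A CArG box stood in 2 of the 11 promoters. It lay 61 to 52 bases before the start of Myl7, as CCTTATTTGG, and 47 to 38 bases before that of Actc1, as CCAAATAAGG. Of all 32851 promoters of this length, 1.63% held one. The CATTCC motif was in 4 of the 11 (Myl7, Tnnt2, Myh6 and 1 start of Myh7), against 14.7% of all promoters. TATAAA was in 3 (Actc1, Myh6 and Nppa), against 13.6%, and AGATAA in 1 (Tnnt2), against 11.2%. With the start as base 1, TATAAA lay at bases 34 to 39 of Actc1, 2 to 7 of Myh6 and -9 to -4 of Nppa. In Actc1 and Myh6 it thus lay after the annotated start. No member promoter held a MEF2 box, which 3.19% of all promoters had. Any of these motifs was in 6 of the 11, against 36.1% of all promoters. The promoters of Myl4 and Tnni3, which vary together with the 3 genes shown, held no match. Those of Ryr2 and of the other starts of Tnnt2 and Myh7 held none either. A match is a string of letters and not a tested binding site.

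The values were linear intensities, already on a common scale, with array medians from 113.2 to 116.1. Tests and correlations used log2(intensity + 16), which understates the change of dim probe sets. The tissue label was borne out by lung markers on every array: Sftpc, surfactant protein C of alveolar type 2 cells, lay between 6203 and 9203, and Scgb1a1, the club cell secretory protein, between 11380 and 15780. Without detection calls, a dim probe set has no level that can be separated from background. Where a gene had several probe sets, the one with the highest mean stood for it, and the others are described after the comparisons.

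The atrial light chains were measured at high intensity in every group. Myl4, the atrial essential light chain, was at 2634, 2739, 2555 and 2839 in the 4T1 arrays, at 3015, 2329, 3807, 2820 and 2010 in the 67NR arrays, and at 2243, 2072, 2845, 2912 and 2978 in the normal arrays. Myl7, the atrial regulatory light chain, was at 2628, 2811, 2334 and 2842 in 4T1, at 2898, 2282, 3411, 2892 and 1893 in 67NR, and at 2097, 2146, 2666, 2885 and 2552 in normal lungs. For both genes the highest and the lowest of the 14 arrays were 67NR arrays, replicate 3 and replicate 5, and the 4T1 arrays lay inside the range of the other groups. On the log2 scale Myl7 averaged 11.27 ± 0.20 (SD, n = 5) in normal lungs, beside 11.36 ± 0.33 (SD, n = 5) with 67NR tumours and 11.38 ± 0.13 (SD, n = 4) with 4T1 tumours. In bulk tissue, fewer cells of a type and less RNA per cell cannot be told apart, and this holds for every level given here.

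Sln encodes sarcolipin, a small membrane protein that inhibits the calcium pump of the sarcoplasmic reticulum and that in mice is mainly atrial. Its intensities were 1564, 1405, 1227 and 1709 in 4T1, 1502, 837.4, 1840, 1461 and 718.1 in 67NR, and 789.1, 874.2, 1322, 1456 and 1425 in normal lungs. The lowest 4 values came from 67NR replicates 2 and 5 and normal replicates 1 and 2, and a gap of 35.9% of the log2 range set them apart from the other 10 arrays. All 4T1 arrays lay above that gap, among 6 arrays of the other groups.

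Nppa, which encodes atrial natriuretic peptide, had the widest spread of the 10 genes. It was at 734.5, 1063, 649.4 and 1381 in 4T1, at 340.0, 184.0, 1659, 295.8 and 158.2 in 67NR, and at 241.7, 135.1, 344.0, 1161 and 407.4 in normal lungs. The 4T1 arrays were all high, but 1 array of 67NR (replicate 3) exceeded all of them and 1 normal array (replicate 4) exceeded 3 of them, so the groups overlapped. From the lowest to the highest array Nppa differed 12.3-fold, and its SD over the 14 arrays, 1.16 on the log2 scale, was above that of 99.9% of probe sets. The next widest was Sln, with an SD of 0.44 and a 2.56-fold range.

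Among the genes used in both chambers, Actc1 encodes cardiac alpha-actin, the thin filament itself. It was at 2599, 2639, 2481 and 2658 in 4T1, at 2792, 2288, 3194, 2492 and 1827 in 67NR, and at 2156, 2273, 2402, 2769 and 2696 in normal lungs. Tnnt2, cardiac troponin T, which anchors the troponin complex to tropomyosin, was at 1913, 1984, 1782 and 2080 in 4T1, at 2139, 1596, 2500, 2021 and 1329 in 67NR, and at 1436, 1659, 2119, 2077 and 2205 in normal lungs. Tnni3, the inhibitory troponin subunit, was at 992.4, 884.1, 867.1 and 1013 in 4T1, at 1134, 759.8, 1167, 1017 and 627.7 in 67NR, and at 663.7, 685.1, 1063, 1083 and 957.2 in normal lungs. The same arrays stood at the ends for these genes: 67NR replicate 3 was highest and 67NR replicate 5 lowest for Actc1, Tnnt2 and Tnni3, as for Myl4, Myl7 and Sln. The lowest 4 arrays were also the same for all 6 of these genes, namely 67NR replicates 2 and 5 and normal replicates 1 and 2.

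Myh6, the fast alpha-myosin heavy chain that dominates both chambers of the adult mouse heart, varied less. It was at 2414, 2335, 2013 and 2625 in 4T1, at 1891, 2303, 2535, 2283 and 1888 in 67NR, and at 1837, 2235, 2316, 2103 and 2348 in normal lungs. Its range was 1.43-fold, and the 3 groups overlapped. Ryr2, the calcium release channel, was dim, at 180.2, 127.1, 124.0 and 183.1 in 4T1, at 219.9, 128.6, 232.4, 225.0 and 113.6 in 67NR, and at 134.0, 164.7, 118.8, 105.0 and 123.1 in normal lungs. Of the 67NR arrays, 3 exceeded every other array for Ryr2, while the rest lay within the normal range.

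Myh7, the slow beta-myosin heavy chain, is the ventricular member of the set; in mice it belongs chiefly to the fetal ventricle, and slow skeletal fibres use it as well. It was at 718.3, 657.7, 784.0 and 688.1 in 4T1, at 665.5, 621.4, 732.1, 670.3 and 803.7 in 67NR, and at 731.3, 789.3, 716.9, 774.0 and 763.7 in normal lungs. Its 1.29-fold range was the narrowest of the 10 genes, and its highest array was 67NR replicate 5, the lowest array for Myl4, Myl7, Sln, Actc1, Tnnt2 and Tnni3. Because Myh7 was the only ventricular member, the ventricular light chains Myl2 and Myl3 were read beside it. Myl2 was dim on every array, between 7.732 and 49.36, and Myl3 lay between 82.35 and 266.1. Mybpc3, the cardiac myosin-binding protein C of both chambers, lay between 410.9 and 501.7.

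**Figure D1:**
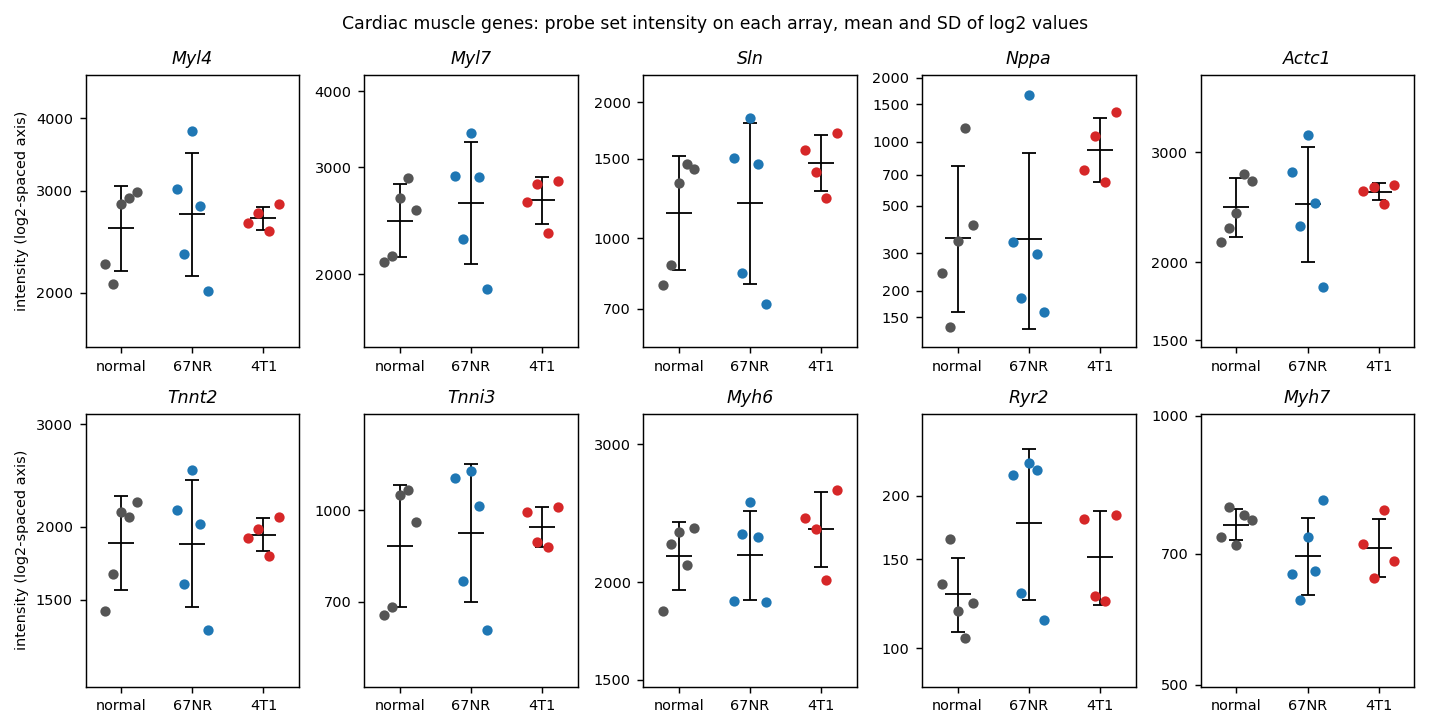
Intensity of the 10 cardiac muscle genes on each of the 14 arrays (vertical axis with log2 spacing, arbitrary units), by group; each point is 1 array and each bar the group mean. Nppa spread over 12.3-fold and Myh7 over 1.29-fold, and the groups overlapped for every gene shown.

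The first comparison asked whether lungs of mice bearing metastatic tumours differed from normal lungs in these genes. No member passed the test: 0 of 16 probe sets had a limma adjusted p under 0.05, against 0.186% of all 34958 probe sets (65 called). None of the 16 had an unadjusted p under 0.05 either, which 5.72% of all probe sets had, and none had groups that did not overlap, against 2.45%. The log2 change was above 0 for 9 of the 10 genes and for 12 of the 16 probe sets. Its median over the 16 probe sets was 0.093, beside -0.0058 over all probe sets. Several of these genes vary together across the arrays, as described below, so their signs are not independent of each other. Nppa had the largest estimate, a log2 change of 1.33 (SE 0.658, 95% interval -0.0955 to 2.75, limma adjusted p = 0.892), with log2 means of 9.86 ± 0.49 (SD, n = 4) in 4T1 and 8.53 ± 1.09 (SD, n = 5) in normal lungs. Sln had a log2 change of 0.36 (95% interval -0.24 to 0.96) and Ryr2 one of 0.22 (-0.24 to 0.68). Myl7 had 0.11 (-0.22 to 0.44), Myh6 0.11 (-0.12 to 0.34), Tnni3 0.10, Actc1 0.083, Myl4 0.059 and Tnnt2 0.047. Myh7 was the one gene with an estimate below 0, at -0.085 (-0.24 to 0.073).

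The second comparison set lungs of mice with 67NR tumours against normal lungs. Again 0 of 16 probe sets passed, where 0.00286% of all probe sets (1) did. One member probe set, the dim 1440424_at of Tnnt2, had an unadjusted p under 0.05, beside 6.77% of all probe sets, and its groups did not overlap, beside 1.23%. It was at 55.22, 42.75, 54.25, 52.55 and 57.03 in 67NR and at 59.79, 60.35, 64.76, 63.67 and 57.49 in normal lungs, a log2 change of -0.18 (limma unadjusted p = 0.0117, adjusted p = 0.632). The other Tnnt2 probe sets had changes of -0.0022 and -0.0042. Ryr2 had the largest estimate among the genes, a log2 change of 0.42 (SE 0.199, 95% interval -0.0104 to 0.853, limma adjusted p = 0.74). Nppa was at -0.022 (-1.37 to 1.32), and 1 array set its sign: the value was 0.40 without normal replicate 4 and -0.57 without 67NR replicate 3. For Myl4, Myl7, Sln, Actc1, Tnnt2, Tnni3 and Myh6 the estimates lay between -0.0022 and 0.096, and Myh7 was at -0.11 (-0.26 to 0.034).

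The third comparison, between the tumour groups, asked whether the 2 cell lines left the lungs different in these genes. It also gave 0 of 16 probe sets past the threshold, against 0.217% of all probe sets (76 called). None had an unadjusted p under 0.05, against 8.77%, and none had groups that did not overlap, against 3.16%. Nppa had a log2 change, 4T1 over 67NR, of 1.35 (SE 0.658, 95% interval -0.0736 to 2.78, limma adjusted p = 0.593). With each array left out in turn, the estimate ran from 1.08 to 1.9. The upper end came without 67NR replicate 3, the array with the highest Nppa, where the limma adjusted p was 0.271. Myl7 (0.014, interval -0.32 to 0.35) and Myl4 (-0.021) had estimates near 0, and Sln was at 0.29 (-0.31 to 0.89). The 3 comparisons share groups, so their estimates are not independent of each other.

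**Figure D2:**
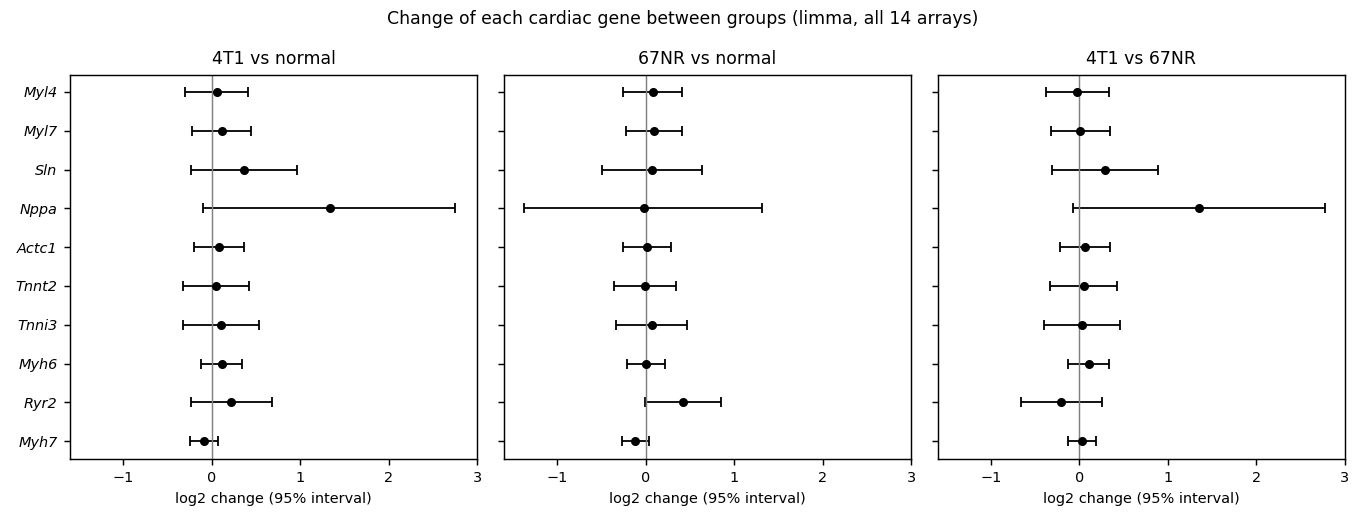
Log2 change of each member gene (points) with its 95% interval (lines) in the 3 comparisons, from the limma fit to all 14 arrays; 0 is no difference. Every interval drawn includes 0, and those of Nppa are the widest, from -0.0955 to 2.75 for 4T1 against normal lungs.

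The arrays nevertheless differed from each other in a shared way that cut across the groups, though with a narrower spread among the 4T1 arrays. Pearson's r and Spearman's rho were computed over the 14 arrays for 53 pairs of genes: the 45 pairs of members and the 8 pairs of Myl4, Myl7, Nppa or Sln with Myl2 or Myl3. P-values came from two-sided permutation tests with 100000 resamples, of which the smallest possible p is 1e-05, and were adjusted over the 53 pairs. By r, 21 pairs passed an adjusted p of 0.05, all of them positive and all among members. They were all 6 atrial pairs (r 0.744 to 0.943), 12 of 20 pairs of an atrial with a both-chamber gene, and 3 of 10 pairs of both-chamber genes.

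Myl7 and Myl4, both atrial light chains, had r = 0.943 and rho = 0.859 (permutation adjusted p = 7.6e-05 and 0.00117). Myl7 had r = 0.935 and rho = 0.943 with Tnni3, r = 0.936 and rho = 0.811 with Tnnt2, r = 0.923 and rho = 0.864 with Actc1, and r = 0.930 and rho = 0.868 with Sln (permutation adjusted p of r at most 8.2e-05). Across the 15 pairs of Myl4, Myl7, Sln, Actc1, Tnnt2 and Tnni3, a set picked after its values were seen, r ran from 0.874 to 0.944. Without the 2 arrays farthest from the median of the first gene, r of these pairs was 0.831 to 0.934 and all 15 still passed. With each array set against its own group mean, r was 0.876 to 0.974, and all 15 passed again. When each gene was given by the mean of its probe sets, dim ones included, 11 of the 15 passed and the lowest r was 0.369, and Myl4 with Myl7 (r = 0.5, permutation adjusted p = 0.135) was among those that did not.

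The values were also read without the low end of the scale. For Sln and Tnni3 the widest gap between arrays set the lowest 4 arrays apart, so r was also computed within the other 10 arrays, a step chosen after the data were seen, which by its construction narrows the range and leaves fewer arrays. There the 15 pairs had r from 0.577 to 0.952, all of them positive, but only 1 passed, Myl4 with Tnnt2 (r = 0.952, rho = 0.952, permutation adjusted p = 0.00106). Myl7 with Myl4 had r = 0.831 (permutation adjusted p = 0.0661) and Myl7 with Sln r = 0.799 (0.0661) over those 10 arrays. The 4 low arrays were too few for a value of their own.

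**Figure D3:**
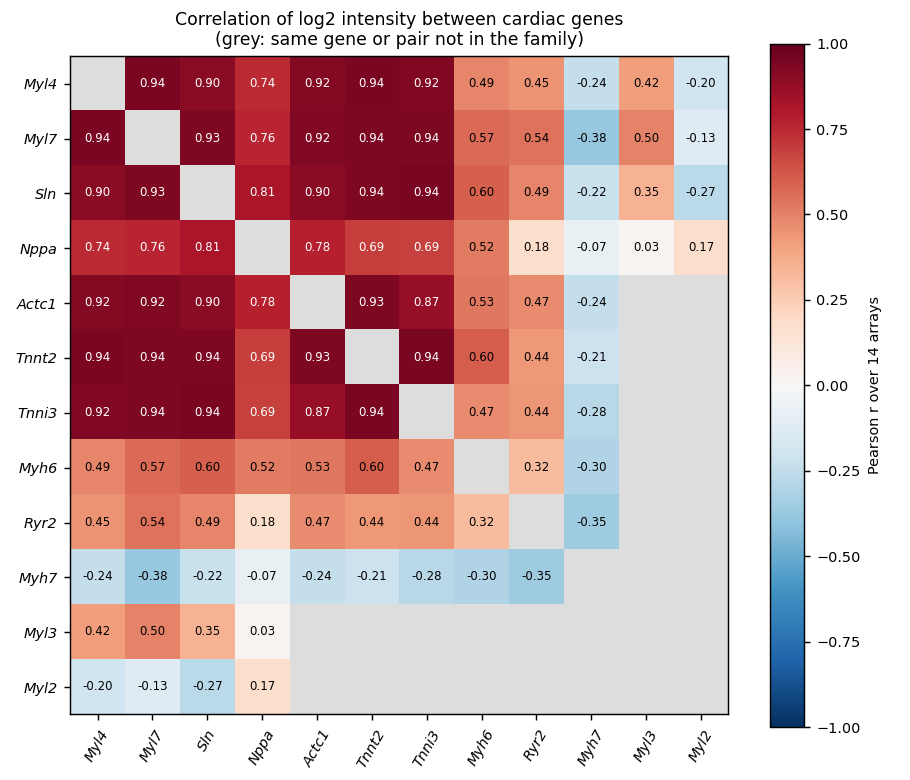
Pearson's r over the 14 arrays for each pair of the 10 member genes and the ventricular light chains Myl2 and Myl3, as colour and number (log2 intensities). Myl4, Myl7, Sln, Actc1, Tnnt2 and Tnni3 form a block with r of at least 0.874, and Myh7 is negative with all 9 other members.

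No pair of an atrial with a ventricular gene passed this test. Of the 12 pairs of Myl4, Myl7, Nppa or Sln with Myh7, Myl2 or Myl3, 0 passed an adjusted permutation p of 0.05, by r or by rho, and 0 had an unadjusted p of r under 0.05. Their r ran from -0.381 to 0.498. Myh7 had r = -0.381 with Myl7 (permutation adjusted p = 0.258), -0.239 with Myl4, -0.222 with Sln and -0.073 with Nppa. Its r was negative with each of the 9 other members, and none of these pairs passed. Myl2, on a dim probe set, had r = -0.129 with Myl7, -0.2 with Myl4, -0.27 with Sln and 0.174 with Nppa. Within the 10 arrays above the low 4, r of all 4 Myl2 pairs was positive. With Nppa it was 0.843 there (rho = 0.855, permutation adjusted p = 0.0661), and this pair did not pass. A p that misses the threshold does not show that the genes are unrelated. The Myl2 pairs rest on a probe set not separated from background, and Myh7 ranged only 1.29-fold, so these pairs decide little about movement together.

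Myl3 was the nearest to an exception. Its r with Myl7 was 0.498 and its rho 0.565 (permutation adjusted p = 0.131 and 0.0826). When each gene was given by the mean of its probe sets, r was 0.712 and this pair passed (permutation adjusted p = 0.017), so the count of 0 among 12 became 1. Of the 3 Myl3 probe sets, 1427769_x_at had r = 0.739 with Myl7, 1427768_s_at had 0.498 and 1428266_at had 0.411. Myl3 is also a light chain of slow skeletal fibres.

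Nppa, Myh6 and Ryr2 stood between these patterns. Nppa passed with all 6 of Myl4, Myl7, Sln, Actc1, Tnnt2 and Tnni3, at r from 0.687 to 0.815. The 2 arrays farthest from the median of the first gene of each pair (Myl4, Myl7 or else Nppa) were then left out. These were 67NR replicates 3 and 5 for the pairs with Myl4 and Myl7, and 4T1 replicate 4 and 67NR replicate 3 otherwise. Without them Nppa still passed only with Sln (r = 0.745, permutation adjusted p = 0.0211) and Actc1 (r = 0.713, permutation adjusted p = 0.0239). Its r was then 0.594 with Myl4, 0.632 with Myl7, 0.592 with Tnnt2 and 0.621 with Tnni3, and these 4 pairs no longer passed. Within the 10 arrays above the low 4, none of the 6 pairs passed. There r of Nppa was 0.0424 with Tnni3, 0.207 with Tnnt2, 0.32 with Myl4 and 0.416 with Myl7. With Sln it was 0.557 and with Actc1 0.576. Myh6 passed with no gene by r, at 0.604 with Tnnt2 (permutation adjusted p = 0.0538) and 0.598 with Sln (0.0574), and with 2 genes by rho (Sln 0.67 and Nppa 0.635). Leaving out 67NR replicate 1 brought its r with Myl7 from 0.566 to 0.732 (permutation adjusted p = 0.00961). With each array left out in turn, this r ran from 0.449 to 0.732. It was 0.324 without the 2 farthest arrays and 0.325 (rho = -0.00606) within the 10 arrays above the low 4. Ryr2 passed with none, its highest r being 0.54 with Myl7, which became 0.68 (permutation adjusted p = 0.0289) without normal replicate 4. With each array left out in turn, that r ran from 0.398 to 0.68, and it was 0.295 without the 2 farthest arrays.

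**Figure D4:**
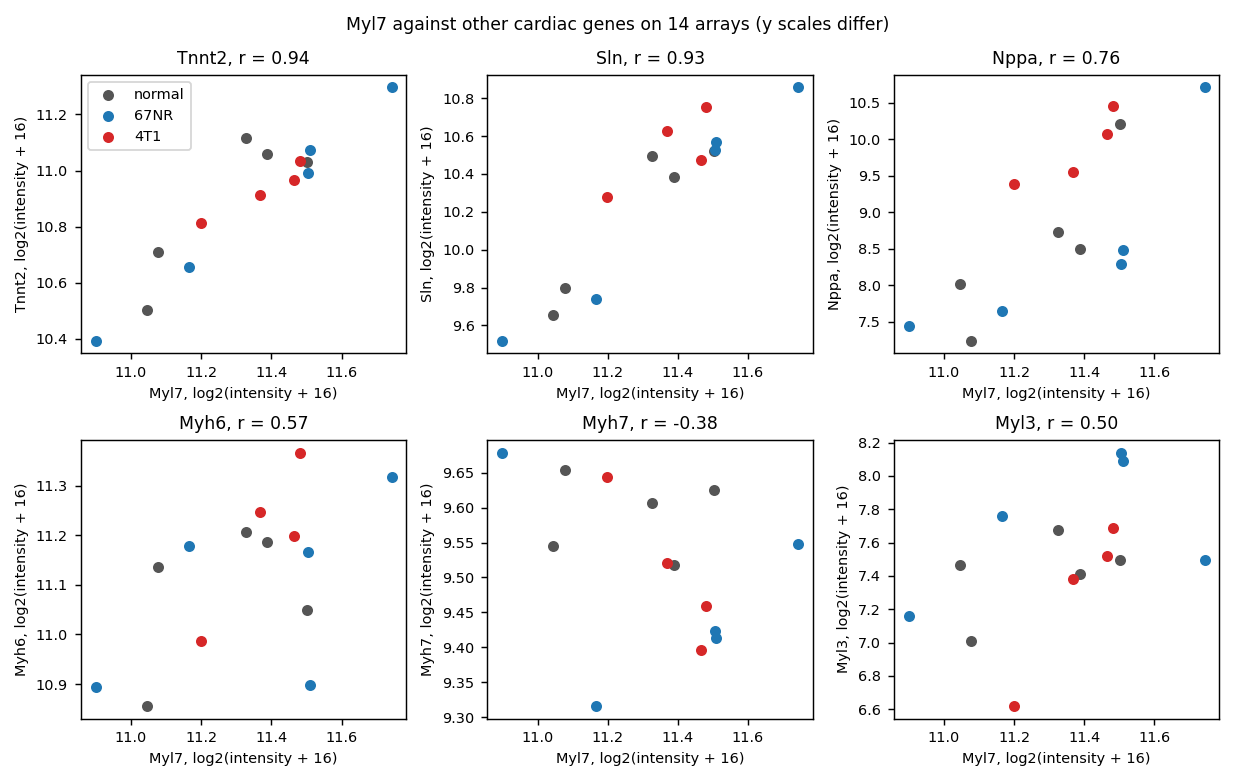
Log2(intensity + 16) of Myl7 (horizontal axes) against 6 other genes (vertical axes), 1 point per array, coloured by group. Tnnt2 (r = 0.936) and Sln (r = 0.930) lie along a line, Nppa (0.761) and Myh6 (0.566) scatter more, and Myh7 (-0.381) and Myl3 (0.498) show no called relation.

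The common movement can be read array by array from the mean log2 deviation of Myl4, Myl7, Sln, Actc1, Tnnt2 and Tnni3 from their means over all arrays, given here with no test. It was 0.091, 0.076, -0.062 and 0.18 in the 4T1 arrays, 0.21, -0.26, 0.43, 0.12 and -0.52 in the 67NR arrays, and -0.37, -0.31, 0.095, 0.18 and 0.13 in the normal arrays. The 4T1 arrays spanned -0.0621 to 0.179, inside the 67NR range of -0.515 to 0.432, and 1 of them, replicate 4, lay just above the highest normal array (0.176). The SD of this deviation was 0.0997 in 4T1 (n = 4), 0.38 in 67NR (n = 5) and 0.26 in normal lungs (n = 5). The limma fit nevertheless used a spread common to the groups. The Gapdh 3′ to 5′ log2 ratio is a sign of RNA and labelling quality. It ran from -0.576 on 67NR replicate 3, the array highest in these genes, to -0.363 on 67NR replicate 2, 1 of the 4 low arrays. The other low arrays were at -0.476 (67NR replicate 5, the lowest in these genes), -0.42 (normal replicate 1) and -0.409 (normal replicate 2). The 4T1 arrays, none of them among the 4 low ones, were at -0.392, -0.496, -0.433 and -0.421. The remaining 67NR arrays were at -0.532 (replicate 1) and -0.521 (replicate 4). The remaining normal arrays were at -0.459 (replicate 3), -0.491 (replicate 4) and -0.554 (replicate 5). The part of this ratio in the result was not tested.

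Other genes were then ranked by their r with Myl7 over the 14 arrays, as a description. Among all 34958 probe sets, those ranked 2 to 7 after Myl7 itself were 6 member probe sets, of Tnnt2 (2 probe sets), Myl4, Tnni3, Sln and Actc1. Nppa ranked 136, Myh6 1413, Ryr2 1767 and Myh7 29531. With 1 probe set per gene, 179 of 18194 genes (0.984%) had an r of at least 0.7, and the median was -0.0477. The 12 most like Myl7 outside the members were Zfp948 (0.906), Pgam2 (0.904), Ckmt2 (0.903), Sh3bgr (0.876), Cox7a1 (0.874), Ttn (0.867), Myoz2 (0.866), Srl (0.864), Ankrd1 (0.858), Mb (0.855), Zfp423 (0.854) and Smpx (0.851). Pgam2 and Ckmt2 are a glycolytic enzyme and a mitochondrial creatine kinase of striated muscle, Ttn is titin, the elastic filament of the sarcomere, and Mb is myoglobin. All points share the same 14 RNA samples, so these values are not independent of each other.

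Mb had an SD over the 14 arrays of 0.75 on the log2 scale. It was at 308.2, 523.8, 288.9 and 577.6 in 4T1, at 419.5, 194.0, 634.1, 319.4 and 168.5 in 67NR, and at 210.4, 90.96, 449.1, 526.5 and 380.3 in normal lungs. Ckmt2 was at 472.4, 437.4, 426.9 and 589.8 in 4T1, at 819.5, 406.6, 788.5, 621.9 and 264.4 in 67NR, and at 288.8, 307.4, 571.5, 593.3 and 654.3 in normal lungs. For both, the lowest 4 arrays were 67NR replicates 2 and 5 and normal replicates 1 and 2, as for the atrial light chains.

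The rest of the heart muscle program was read from lists of genes. None of the genes in any of the 13 lists passed the limma test in any of the 3 comparisons. Of 22 other sarcomere genes with a probe set, 9 had an r of at least 0.7 with Myl7 (median 0.598). They included Tnnc1, the calcium-binding troponin subunit (0.816), Actn2, the Z-disc cross-linker (0.766), and Myom2 of the M-band (0.833). Mybpc3 was at -0.324 and Nebl at -0.32. The list of energy metabolism in striated muscle had 9 of 16 (median 0.733), among them Fabp3, the heart fatty acid-binding protein (0.739), and Ckm, the cytosolic muscle creatine kinase (0.813). For calcium handling and membrane genes it was 4 of 20 (median 0.187), namely the calcium pump Atp2a2 (0.791), its inhibitor Pln (0.822), calsequestrin Casq2 (0.813) and triadin, Trdn (0.784). Cardiac transcription factors had 0 of 17 (median -0.039), with Nkx2-5 at -0.396 and Mef2a at 0.073.

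The chamber lists had medians of 0.406 for 12 atrial genes other than Myl7 and 0.344 for 9 ventricular genes. The difference between the lists was not tested. Members are included in the atrial median, and the atrial genes that are not members ran from -0.291 (Kcnj3) to 0.79 (Kcnj5). The atrial genes with an r of at least 0.7 were the members Myl4, Sln and Nppa, whose r is that of the pairs above, and Mybphl (0.788) and the potassium channel gene Kcnj5 (0.79). Of the ventricular genes, Pln was the 1 that reached it, and Pln is expressed in smooth muscle as well. The ventricular genes Irx4 (6.723 to 9.048) and Kcnj2 (2.175 to 8.355) stayed at very low intensities on all arrays, as did the atrial gap junction gene Gja5 (5.101 to 7.113).

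Markers of neighbouring tissues were read in the same way, and their part in the common movement was not tested. Skeletal muscle had 1 of 26 genes with an r of at least 0.7, the light chain Myl1 (0.821, intensity 204.7 to 434.2), with a list median of -0.0369. Its fast myosins Myh1 (1.449 to 20.77) and Myh4 (4.392 to 30.66), and the troponin subunit Tnnc2 (6.329 to 7.46), were dim on every array. Other genes of the list were brighter: Myh2 (12.65 to 181.6), Acta1 (93.53 to 167.9), Atp2a1 (181.4 to 286.6) and Casq1 (169.9 to 302.7). Their r with Myl7 was -0.043, 0.635, -0.342 and -0.579 in that order, and that of Mybpc2 was 0.699. The summed intensity of the skeletal list was 1533 to 1976 in 4T1, 1635 to 1802 in 67NR and 1507 to 1848 in normal lungs. Smooth muscle had 3 of 12, Actg2 (0.724), Cnn1 (0.759) and Pln, with Acta2, the smooth muscle actin, at 0.686 and a list median of 0.632. Its summed intensity was 16200 to 16940 in 4T1, 14140 to 17960 in 67NR and 15490 to 16530 in normal lungs.

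Fat, mesothelium and epicardium, thymus, and oesophagus and trachea had 0 of 13, 0 of 9, 0 of 8 and 0 of 11 genes at that r. The summed fat list was 5592 to 9988 in 4T1, 4376 to 6294 in 67NR and 4858 to 6896 in normal lungs. For mesothelium, epicardium and endocardium it was 9431 to 10190, 9933 to 13150 and 9141 to 10070, for thymus 878.1 to 952, 881.7 to 1042 and 926.1 to 1101, and for oesophagus and trachea 709.4 to 954.5, 616 to 911.2 and 647.3 to 736, in the same order. Lung epithelium and endothelium had 0 of 13 and a median r of -0.25, with Sftpa1 at -0.534 and Scgb1a1 at -0.456. The lung sums were 89040 to 105800 in 4T1, 90890 to 108500 in 67NR and 90330 to 107400 in normal lungs. No marker of these lists was at 0 on any array.

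**Figure D5:**
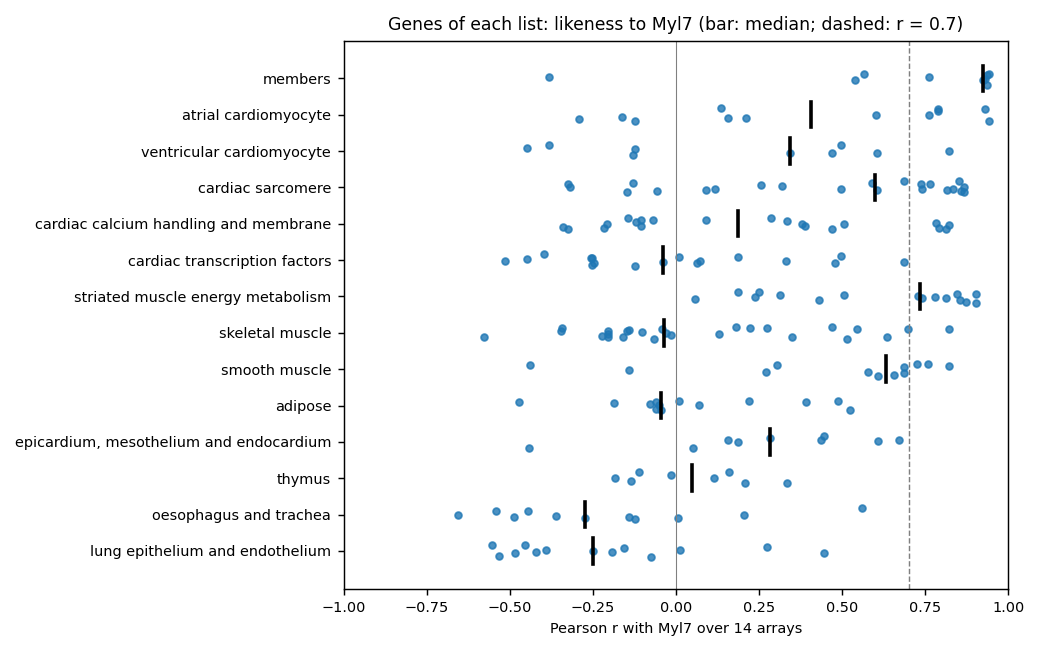
Pearson's r with Myl7 over the 14 arrays for the genes of each list (1 point per gene), with the list median as a bar and a dashed line at 0.7. Energy metabolism (median 0.733), smooth muscle (0.632) and sarcomere genes (0.598) lie high, and cardiac transcription factors (-0.039) and lung markers (-0.25) do not.

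Probe sets of one gene did not always behave alike. For Tnnt2, 1424967_x_at followed the main probe set and had r = 0.945 with Myl7, while the dim 1440424_at (42.75 to 64.76 over all arrays) had 0.0781. The dim probe sets of Myl4 (1457126_at, r = 0.232), Sln (1420883_at, r = 0.498) and Ryr2 (1421126_at, r = -0.0168) also had a lower r with Myl7 than the brighter probe set of the same gene. For Myh6 the dim one (1417729_at) had the higher r, 0.657 against 0.566. For Sln, the dim probe set lay between 8.827 and 40.57 and had a log2 change of -0.44 in 4T1 against normal lungs, opposite in sign to 0.36 for the bright one, and neither passed. Of the 16 probe sets, 11 were in the upper 60% of probe sets by mean level.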

How the data were processed

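Lung RNA (3 ug per sample, per the labels' protocols) was labelled as biotin cRNA and read on 14 Affymetrix arrays, 1 per sample. The deposited table holds linear intensities of 45101 probe sets; how the authors summarised and normalised these intensities, and the build, are not given in the sources used here. Probe sets were named by the platform annotation: 34958 had 1 symbol, 932 several, and 9211 were unnamed here. The 16 member probe sets matched RefSeq symbols through Entrez identifiers.

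Values were taken as log2(intensity + 16) without a level filter. Limma 3.58.1 in R 4.3.3 (lmFit, default eBayes, 11 residual degrees of freedom) fitted 3 group means to all 14 arrays. P-values were adjusted by Benjamini-Hochberg over 34958 probe sets, and an adjusted p under 0.05 was called. The number of arrays limits the precision. Correlations used scipy 1.17.1 and numpy 2.4.6. The scripts were tested on simulated data.

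Every member was named, with leading genes of each list by level and the 12 genes most like Myl7; other genes named from the lists were chosen after their values were seen. The members, lists and thresholds were chosen with earlier results of these data known. Alternatives covered the offset, normalisation, probe set choice, level filter, variance model, array weights, arrays in the fit, replicate numbers and each array left out.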

Additional observations from a re-analysis of the deposited data

Results flagged for a closer look

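Of 48 sets of 4 or 5 arrays examined, each 1 member probe set in 1 group, 2 had an array far from the others; chance alone sets about 1 in 20 apart. Both were dim probe sets in the 4T1 group. Myh6 probe set 1417729_at was at 40.43 on 4T1 replicate 3, against 91.39 to 103.3 on the other 4T1 arrays, while the bright Myh6 probe set was at 2013 there. Myl4 probe set 1457126_at was at 13.0 on 4T1 replicate 2, against 62.69 to 74.35, while the bright Myl4 probe set was at 2739 there. The cause was not tested.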

How the results depend on the processing

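The count of 0 member probe sets called held in all 3 comparisons under every alternative run, each array left out included. The count of 0 among 12 atrial-ventricular pairs held with each array left out, by rho, within the 10 upper arrays and under the other scalings. It became 1 with the mean of the probe sets of a gene (Myl7 with Myl3, r = 0.712). Same-numbered arrays of different groups did not deviate together (r from -0.143 to 0.0997 over 13 pairs, and 2 of the 14 arrays were most like one of their own number), so the numbers were not taken as a pairing. With the replicate number as a block the count became 3, Myl3 with Myl4 (0.744), Myl7 (0.729) and Sln (0.707), and 26 of the 53 pairs passed, against 21 without it. The cause was not tested. The mean of probe sets also brought Myl4 with Myl7 to r = 0.5, and 11 of the 15 pairs named in the text then passed.

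Uncalled changes near 0 turned sign in places. In 4T1 against 67NR, Myl7 was at -0.00856 with quantile normalisation, -0.029 with array weights and -0.037 with the block; Tnni3 was at -0.024 with array weights and -0.017 with the block, and Tnnt2 at -0.00554 with array weights. Array weights gave 0.14 for Nppa and 0.075 for Tnnt2 in 67NR against normal lungs. With the mean of probe sets, Sln was at -0.041 in 4T1 and -0.041 in 67NR against normal lungs and -0.000209 between the tumour groups, and Myh6 was at -0.054 in 4T1 against 67NR. Without the 2 farthest arrays, r was 0.036 for Sln with Myh7, -0.101 for Nppa with Myl2 and -0.0388 for Nppa with Myl3. Within the 10 upper arrays it was 0.0152 for Myl4 with Myh7, 0.168 for Nppa with Myh7, 0.317 for Myl4, 0.529 for Myl7 and 0.543 for Sln with Myl2, and -0.327 for Nppa with Myl3.

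Leaving out 1 array at a time turned these values, all uncalled. In 4T1 against 67NR the ranges were -0.10 to 0.11 for Myl7, -0.017 to 0.080 for Myh7, -0.13 to 0.098 for Myl4, -0.10 to 0.12 for Tnni3, -0.073 to 0.15 for Tnnt2 and -0.042 to 0.16 for Actc1. In 67NR against normal lungs they were -0.075 to 0.13 for Actc1, -0.025 to 0.20 for Tnni3, -0.082 to 0.25 for Sln, -0.054 to 0.053 for Myh6, -0.57 to 0.40 for Nppa, -0.11 to 0.12 for Tnnt2 and -0.039 to 0.19 for Myl4. In 4T1 against normal lungs they were -0.048 to 0.11 for Tnnt2 and -0.020 to 0.11 for Myl4. For r they were -0.304 to 0.0849 for Nppa with Myh7, -0.136 to 0.135 for Nppa with Myl3 and -0.337 to 0.00385 for Myl7 with Myl2.

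Dim probe sets (Myl2, Ryr2 and the second probe sets of Myl4, Sln and Myh6) lie at intensities where no call used here separates signal from background.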
